A study of Mus musculus with 2 samples.

Results

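The cells described here were regulatory T (Treg) cells in which the unique molecular identifiers (UMIs), each of which stands for a captured RNA molecule, of Cxcr3 and Tbx21 summed to 2 or more. By this rule 1187 of 7024 cells were members, 338 of 3634 in the control library and 849 of 3390 in the rescued library. The members are called the Cxcr3 class, because Tbx21 contributed few of the UMIs and the class rests on fewer than 3 markers; the name Th1-like was therefore not used. All cells came from spleen and lymph nodes of male C57BL/6 mice at 7 months and were sorted by flow cytometry as TCRβ+ CD4+ CD8- NK1.1- Thy1.1- cells with the Foxp3 reporter. Control mice were Foxp3DTR-GFP/y Cd4creERT2, with Foxp3 in use throughout life, and their library pooled 5 animals. Rescued mice were Foxp3LSL/y Cd4creERT2, in which a loxP-flanked stop cassette kept Foxp3 off until Cre removed it, and their library pooled 4 animals. Both groups carried the tamoxifen-dependent Cre under control of Cd4 and the R26 tdTomato reporter, and both were given 4-hydroxytamoxifen, or 4-OHT, when 14 days old. Recombination took place in CD4-expressing cells present at that time, so Treg cells made later by the thymus are part of the control pool. Each group had 1 library, so the differences below were not checked against replicates and were not tested. Intervals are 95% intervals and cover counting error only.

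T-bet, the protein of Tbx21, is the transcription factor that directs CD4 T cells to the type 1 (Th1) fate under interferon γ, IL-12 and IL-27. Treg cells that meet type 1 inflammation can switch on T-bet as well, and with it CXCR3, the receptor for the interferon-induced chemokines CXCL9, CXCL10 and CXCL11, which guides T cells into inflamed tissue. Such Treg cells are known for holding type 1 responses in check.

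Nearly every member was in the class through Cxcr3. In the files' build (GRCm38), Cxcr3 (ENSMUSG00000050232) lies on the minus strand at X:101731535-101734269 and Tbx21 (ENSMUSG00000001444) on the minus strand at 11:97098071-97115331. Over all cells the control library held 1308 UMIs of Cxcr3 and 70 of Tbx21, and the rescued library 3344 and 95. Members with Cxcr3 and no Tbx21 UMI made up 88.2% of the control class and 93.4% of the rescued class. Both genes were seen in 34 control members (10.1%) and 52 rescued members (6.12%), and Tbx21 without Cxcr3 in 6 and 4. The level of Tbx21 in the class, in CPM (UMIs of the gene scaled to a common total of UMIs over the summed cells), was 27.1 in the control library and 16.7 in the rescued library, and that of Cxcr3 was 540.3 and 578. These levels were fixed by the rule and describe it. They were read at the 3′ end of transcripts, so CPM are compared here between cells and not between genes.

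The genes of the rule went together, read in each case in cells chosen by the other gene alone. Tbx21 stood at 11.6 CPM in control cells with a Cxcr3 UMI and at 2.69 CPM in control cells without one, a log2 ratio of 2.11 (interval 1.39 to 2.83). In rescued cells the levels were 9.25 and 3.38 CPM, a log2 ratio of 1.45 (0.80 to 2.15). With every cell thinned to 2000 UMIs the ratios were 1.81 and 1.45 on the log2 scale. Tbx21 was thus higher in Cxcr3+ cells of both libraries, from 37 and 67 UMIs. In the other direction, Cxcr3 in cells with a Tbx21 UMI over cells without one had log2 ratios of 1.52 (1.18 to 1.84) in control cells. In rescued cells this ratio was smaller, at 0.54 (0.29 to 0.78). At 2000 UMIs per cell these were 1.72 and 1.05. The sort itself was visible in the class: Cd3e had a UMI in 94.1% of control and 96.8% of rescued members, and Foxp3, the factor that defines Treg cells, in 32.8% and 79.6%.

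**Figure D1:**
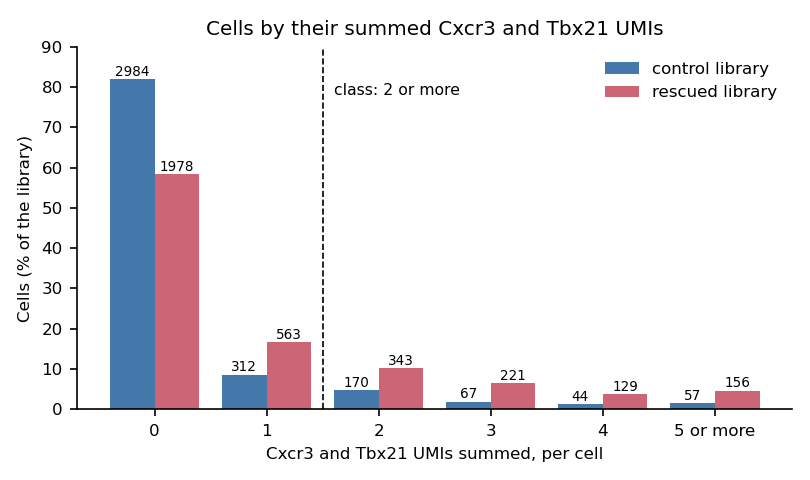
Share of cells (percent of library, vertical axis) by the sum of Cxcr3 and Tbx21 UMIs per cell (horizontal axis) in the control and rescued libraries. Cells with a sum of 2 or more are members: 338 control and 849 rescued cells.

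The class took 9.30% (8.38 to 10.3) of the control library and 25.0% (23.6 to 26.5) of the rescued library. Since a count rule picks deep cells, the share was also taken at a fixed depth. With every cell thinned to 2000 UMIs the rule found 3.56% (2.97 to 4.22) of 3569 control and 10.2% (9.24 to 11.3) of 3357 rescued cells, the shallower cells being left out. The rescued share was above the control share at each depth. Just inside the threshold, 170 control and 343 rescued cells had a sum of exactly 2; just outside it, 312 and 563 cells had a sum of 1. Cxcr3 without thinning was seen in 17.2% of control and 41.1% of rescued cells, and no population in the libraries is known to lack Cxcr3, so the share that free RNA would give was not measured. In whole-library terms a larger share of cells and more RNA per cell both raise the CPM of Cxcr3, which was 84.7 in the control and 215 in the rescued library.

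Members were deeper than other cells, with a median of 4562 against 3697.5 UMIs per cell in the control library and 4577 against 3701 in the rescued library. Their median share of mitochondrial UMIs was 8.40% against 9.54%, and 8.47% against 9.28%. Cells of over 3 times the median depth of their library numbered 19 of the control and 62 of the rescued members. The part of these differences in the results was not tested, but results were recomputed without those cells, at matched depth and within a mitochondrial limit. A total of 3 cell barcodes occurred in both libraries, of which 2 belonged to members.

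Set against all other cells of the same library, the class was higher in a small and mixed set of genes. By the smaller of the libraries' ratios the chemokine Ccl5 led the called genes, and others among them were the cytotoxic granule genes Gzmb and Nkg7, the calcium-binding protein S100a6 and the mitotic enzyme Ube2c. A gene was called past the fold when the class was at least 1.5-fold higher, or lower, in both libraries, among genes with at least 200 UMIs over all cells. Of 8791 such genes 31 (0.353%) were higher and 51 (0.58%) lower. Leaving out, for each gene, the cell with the most UMIs in each population kept 20 of the 31 higher and 50 of the 51 lower genes past the fold. Of all genes, 90% lay between -0.57 and 0.62 on the log2 scale in the control library and between -0.34 and 0.30 in the rescued library. The wider range in the control library went with its smaller class.

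Ccl5 (ENSMUSG00000035042, 11:83525778-83530518) stood at 570.1 CPM in control members and 70.2 CPM in other control cells, and at 326 and 122 CPM in rescued cells. Its log2 ratios were 3.02 (2.90 to 3.15) and 1.42 (1.31 to 1.52). The class was above the other cells in both libraries, with the wider gap in the control library. Gzmb (ENSMUSG00000015437, 14:56258838-56262260), a granule protease that kills target cells, was at 38.9 against 9.95 CPM and at 65.5 against 28.9 CPM, log2 ratios of 1.97 and 1.18. Nkg7 (ENSMUSG00000004612, 7:43437073-43438249), a membrane protein of cytotoxic granules, was at 113.9 against 34.6 CPM and at 38.7 against 20.1 CPM, log2 ratios of 1.72 and 0.94. For each of these genes the control and rescued classes lay above their own other cells, and each ratio had an interval above 0.

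S100a6 was at 987 against 237 CPM in the control and 1016 against 537 CPM in the rescued library. Its levels in the classes of both libraries were close, and the difference lay in the other cells. Further genes of the rule for named genes were Ube2c, a ubiquitin-conjugating enzyme of mitosis (log2 ratios 1.99 and 1.26), C1qtnf6 (1.78 and 0.93), Serpina3f, from a protease inhibitor family with near-identical copies, whose counts are therefore uncertain (2.68 and 0.88), and the adhesion molecule Alcam (1.25 and 0.78). For Ssfa2 (0.70 and 0.79), the suppressive cytokine Il10 (1.05 and 0.68) and Tnfsf13b, which encodes the B cell survival factor BAFF (0.76 and 0.67), the control interval reached below 0. With the class chosen after thinning to 2000 UMIs these 3 turned negative in the mean of the libraries, at -0.18, -0.81 and -0.38. Weighting the other cells to the depth of the class lowered the mean log2 ratio of Ube2c to 0.36, of Nkg7 to 0.60 and of S100a6 to 0.88, while that of Ccl5 was 2.17. Ube2c was seen in 17 control and 34 rescued members, and the 10 richest held 78.8% and 53.9% of its UMIs. Serpina3f was seen in 15 and 47 members, and the 10 richest held 84.4% and 40%.

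**Figure D2:**
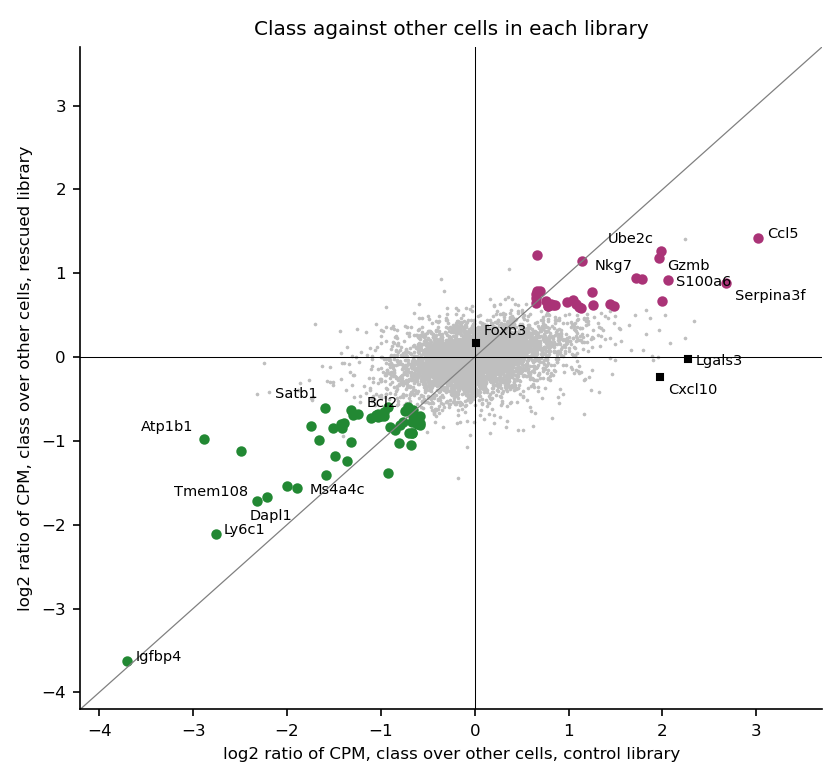
Log2 ratio of CPM, class over other cells, in the control library (horizontal axis) and the rescued library (vertical axis); each point is a tested gene, purple where at least 1.5-fold higher and green where at least 1.5-fold lower in both libraries, black squares are 3 further named genes and the diagonal marks equal ratios. Ccl5 lies at 3.02 and 1.42, and Igfbp4 at -3.70 and -3.62.

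Because T-bet recognises a short T-box sequence, the promoters of the called genes were searched for the letters TCACAC on either strand, in the 250 bases before each RefSeq transcription start (GRCm38.p6). The letters occurred in 7 of the 20 higher genes that had a window, in 10.9% of the 6802 tested genes with one, and in 12.3% of all 32851 windows. Of the genes described above, Cxcr3, Gzmb, Nkg7 and S100a6 held them. Tbx21, Ube2c, C1qtnf6, Serpina3f, Alcam and Tnfsf13b did not. Ccl5, Il10 and Ssfa2 had no window and were not searched. A match is a run of letters and no sign of binding. The stretches are shown 5′ to 3′ on the strand of the gene, with matches in capitals, and end before the first base of the gene model where that lies further upstream than the RefSeq start.
Cxcr3, chrX:101734270-101734397, minus strand: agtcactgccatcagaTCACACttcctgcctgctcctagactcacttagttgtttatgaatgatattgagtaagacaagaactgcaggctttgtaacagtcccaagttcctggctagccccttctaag
Tbx21, chr11:97115332-97115581, minus strand: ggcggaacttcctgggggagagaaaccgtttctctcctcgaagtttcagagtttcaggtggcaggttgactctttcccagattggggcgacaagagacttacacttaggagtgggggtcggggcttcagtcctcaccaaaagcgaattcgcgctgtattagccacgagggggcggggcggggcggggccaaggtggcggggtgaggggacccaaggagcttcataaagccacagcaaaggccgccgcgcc
Gzmb, chr14:56262335-56262584, minus strand: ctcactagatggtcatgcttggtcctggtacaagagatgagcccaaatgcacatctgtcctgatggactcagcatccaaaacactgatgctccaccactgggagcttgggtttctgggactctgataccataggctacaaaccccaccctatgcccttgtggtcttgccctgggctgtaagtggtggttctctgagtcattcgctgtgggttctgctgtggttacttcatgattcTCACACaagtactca
S100a6, chr3:90612644-90612881, plus strand: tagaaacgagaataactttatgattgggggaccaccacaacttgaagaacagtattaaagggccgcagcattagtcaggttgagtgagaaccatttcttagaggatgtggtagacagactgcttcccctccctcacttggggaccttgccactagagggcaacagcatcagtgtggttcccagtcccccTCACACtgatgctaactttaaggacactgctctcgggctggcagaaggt

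The wider Th1 programme was only partly present. Of its 26 genes 15 had enough UMIs, of which 4 were higher in both libraries, Ccl5, Gzmb and Nkg7 among them, and 0 lower. The median log2 ratio of the list was 0.91 in the control and 0.18 in the rescued library, beside medians of 0.02 and 0.00 over all genes. In the control library other members of the list stood above the other cells, with Il18r1, a chain of the IL-18 receptor, at 1.09, the transcriptional regulator Id2 at 1.16 and the chemokine receptor Cxcr6 at 0.91 on the log2 scale. In the rescued library the same ratios were 0.04, 0.18 and -0.39. Stat4, which carries the IL-12 signal, was at 0.30 and 0.00, and Txk, a kinase of Th1 cells, was below the other cells at -1.06 and -0.58. Il18r1, Id2 and Cxcr6 were thus higher in the class than in all other control cells together, while the rescued intervals included 0 or began close to it. Against control cells outside the class with at least 2 Itgae UMIs they were at -0.32, -0.19 and -1.47. Against those with at least 2 UMIs of Areg, Klrg1 and Il1rl1 together they were at 0.15, -1.14 and -1.75. Cxcr6 was seen in 16 control members, and the 10 richest held 84.6% of its UMIs.

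The defining products of Th1 cells were at the edge of detection. Ifng, the Th1 cytokine, had 17 UMIs in control members and 47 in other control cells, and 45 and 54 in the rescued library, below the minimum for a call. As CPM these were 9.05 against 3.46 and 9.30 against 5.05, log2 ratios of 1.39 (0.49 to 2.21) and 0.88 (0.28 to 1.48). Ifng was thus higher per UMI in the class of both libraries, from few molecules. Il12rb2, the inducible chain of the IL-12 receptor, had 0 UMIs in control members and 1 in rescued members. Eomes, a T-box factor related to T-bet, had 2 and 1, and the granzyme gene Gzmk had 1 and 2. At these counts no difference of Il12rb2, Eomes or Gzmk was detectable.

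**Figure D3:**
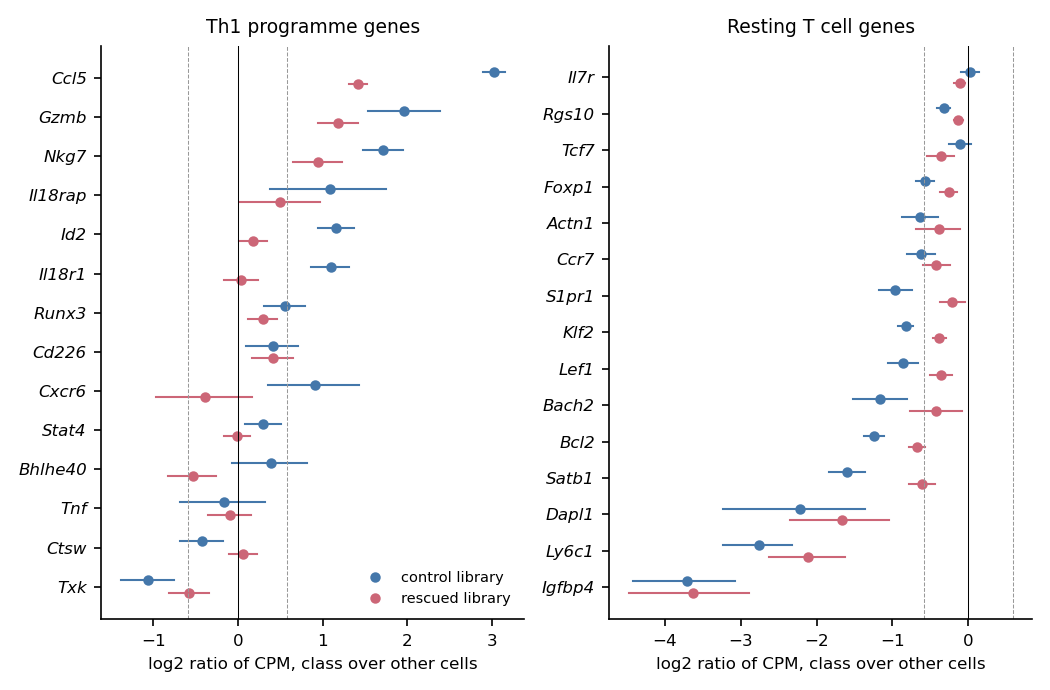
Log2 ratio of CPM, class over other cells (horizontal axis), for tested genes of the Th1 programme (left, 14 of 15 shown) and the resting list (right); blue points are the control and red points the rescued library, bars are 95% intervals for counting error, and dashed lines mark 1.5-fold. Ccl5 lies at 3.02 and 1.42, Txk at -1.06 and -0.58, and Igfbp4 at -3.70 and -3.62.

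Receptors and carriers of the signals that induce T-bet were close to the other cells. Of 13 tested genes 0 were higher and 1 lower in both libraries. The lower gene was Ifngr2, the signalling chain of the interferon γ receptor, at -0.91 (-1.39 to -0.45) and -0.83 (-1.18 to -0.49). Ifngr1, its ligand-binding chain, pointed the other way without reaching the fold, at 483 against 349 CPM and 709 against 566 CPM, log2 ratios of 0.47 (0.36 to 0.57) and 0.33 (0.27 to 0.39). Socs1, an inhibitor of this pathway, was at -0.40 in both libraries. The receptor chains therefore differed from each other in direction in both libraries.

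Genes that interferon γ switches on were close to the other cells as well. Of 31 tested genes 1, Irf8, a transcription factor, was higher in both libraries (1.26 and 0.62), 0 were lower, and the median was 0.05 and 0.01. Cxcl10, which encodes a ligand of CXCR3, was above the other cells of the control library at 1.97 (1.65 to 2.29) and just below those of the rescued library at -0.24 (-0.44 to -0.04). Its UMIs came from few cells, since the 10 richest members held 82.4% of them in the control and 53.3% in the rescued class. Of 22 genes of the type I interferon response 0 were higher and 2 lower, Ifit3 (-0.85 and -0.87) and Oasl2 (-1.74 and -0.82), with medians of -0.22 and -0.08.

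Members had low levels of genes that mark resting, recirculating Treg cells. Of 15 tested genes 0 were higher and 5 lower in both libraries, and the median was -0.86 and -0.39. Igfbp4, an insulin-like growth factor binding protein, was at 10.6 against 138 CPM in the control and at 3.10 against 38.2 CPM in the rescued library, log2 ratios of -3.70 (-4.41 to -3.07) and -3.62 (-4.47 to -2.88). Only 6 control and 4 rescued members had a UMI of it. Ly6c1, a surface protein of resting Treg cells, was at -2.76 and -2.11, and Dapl1 at -2.22 and -1.67. Satb1, a chromatin organiser, was at -1.59 and -0.61, and the survival gene Bcl2 at -1.24 and -0.68. Klf2, which drives the genes for recirculation, missed the fold in the rescued library, with -0.83 (-0.92 to -0.73) and -0.38 (-0.46 to -0.30), and Tcf7 was at -0.11 and -0.37. Among the other genes with the lowest ratios were Tmem108 (-2.32 and -1.71), Ms4a4c (-1.89 and -1.56), the kinase gene Prkd3 (-1.58 and -1.41), Sorcs2 (-2.49 and -1.12), the transcription factor Gata1 (-1.32 and -1.01), the semaphorin Sema4a (-1.66 and -0.99) and Atp1b1, a chain of the sodium pump (-2.89 and -0.98).

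Genes that define Treg cells did not pass the fold in both libraries. Of 10 Treg identity genes 0 were called in either direction, with medians of 0.13 and 0.12. Foxp3 (ENSMUSG00000039521, X:7573644-7595245) was at 81.4 against 80.9 CPM in the control and at 506 against 451 CPM in the rescued library, log2 ratios of 0.01 (-0.24 to 0.26) and 0.16 (0.09 to 0.24). Il2rb, the IL-2 and IL-15 receptor chain, was above the other cells at 312 against 214 CPM and 388 against 249 CPM, log2 ratios of 0.54 (0.41 to 0.67) and 0.64 (0.55 to 0.72), of which the former fell short of the fold. Of 26 suppressor and activation genes 3 were higher in both libraries: Il10, Gzmb and Fgl2, a secreted suppressor molecule (1.44 and 0.64). The call of Il10 rested on 1 rescued member with 40 of its 100 UMIs, and without the richest cell of each population its rescued ratio was 0.11. Of 14 S100, annexin and cytoskeletal genes 2 were higher, S100a6 and Anxa2 (1.08 and 0.63, the latter 0.53 without the richest cells and so short of the fold), with medians of 0.71 and 0.26. S100a4 reached 1.87 in the control and 0.47 in the rescued library, and the integrin Itgb1 1.25 and 0.24.

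The lists for other helper fates held 0 genes that were higher in both libraries. Of 8 Th2 and tissue-repair genes 0 were called, with medians of 0.62 and 0.00. Of 5 Th17 genes 0 were higher and 2 lower, Tmem176a (-1.36 and -1.24) and Tmem176b (-0.79 and -0.81). Of 9 follicular genes 0 were called, and of 11 cell cycle genes 1 was higher, Stmn1 (0.67 and 1.22), which was at 0.46 in the control library without the richest cells and so no longer called. Of 13 genes that tissue handling can switch on 0 were called, with medians of -0.29 and -0.07.

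Markers of cells that the sort should have removed were low in members, and what part such cells had in the results was not tested. Over the 8 CD8 T and NK cell markers in the table the summed level was 28.2 CPM in control members against 22.9 CPM in other control cells, and 34.1 against 54.5 CPM in the rescued library. Cd8a, which defines CD8 T cells, had 0 UMIs in control and 1 in rescued members. Cd8b1, the other CD8 chain among these markers, had 31 UMIs in 25 control members and 81 UMIs in 71 rescued members. Its level was 16.5 against 17.98 CPM in the control library and 16.7 against 16.3 CPM in the rescued library. Cd8b1 thus made up most of the control sums and was close to the other cells in each library. The 5 γδ T cell markers summed to 8.52 against 16.9 CPM and 3.10 against 11.9 CPM. Of the 4 globin genes there were at most 2.69 CPM in any of these populations. The 9 B cell markers summed to 74.5 against 58.2 CPM and 98.4 against 91.3 CPM, and the 7 myeloid markers to 188 against 166 CPM and 207 against 201 CPM. Most of the last 2 sums came from Cd79b and Cst3, which T cells also express. Markers of conventional CD4 T cells summed to 64.4 against 64.3 CPM and 71.1 against 73.3 CPM.

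Cells just outside the threshold already had part of the class's pattern, depending on the gene and the library. In the control library Klf2 was at 946 CPM in cells with a sum of 0, 435 CPM with a sum of 1 and 471 CPM with a sum of 2, and Ly6c1 was at 167, 22.5 and 22.3 CPM. Ccl5 was at 47.8, 261 and 477 CPM in the control library, and at 99.97, 193 and 400.5 CPM in the rescued library. Klf2 and Ly6c1 were therefore about as low at a sum of 1 as at 2, while Ccl5 was higher still at 2. Above that Ccl5 took no steady course, with 238 CPM at a sum of 3 in the rescued library. Foxp3 had no such step, at 81.4, 76.6 and 91.6 CPM in the control and 446, 469 and 471 CPM in the rescued library. In the same order Nkg7 was at 34.6, 35.1 and 98.7 CPM in the control and 13.4, 41.7 and 34.1 in the rescued library. Gzmb was at 10.5, 4.92 and 27.0 CPM and at 26.8, 35.7 and 33.5 CPM, and S100a6 at 208, 485 and 605 CPM and at 542, 523 and 805 CPM. At a sum of 1, control Nkg7 and Gzmb and rescued S100a6 were thus not clearly above their levels at 0. The same comparison places part of the cells with Cxcr3 among the other cells, since 293 control and 549 rescued non-members had 1 Cxcr3 UMI.

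**Figure D4:**
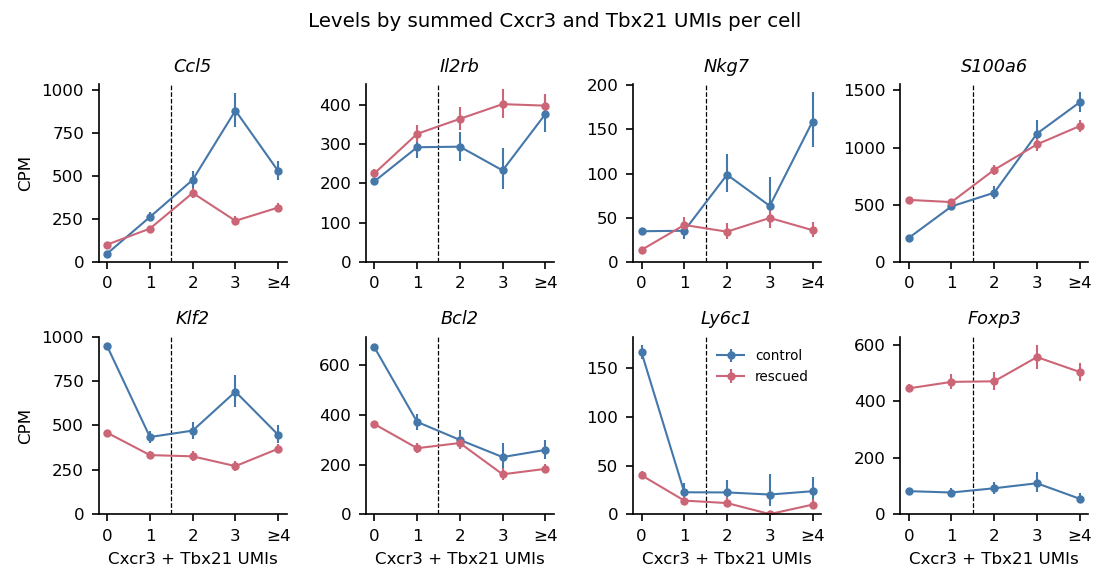
Level in CPM of summed cells (vertical axis, a scale of its own in each panel) for 8 genes by the sum of Cxcr3 and Tbx21 UMIs per cell (horizontal axis), in the control (blue) and rescued (red) libraries; bars are 95% Poisson intervals and the dashed line is the threshold of the class. In the control library Ccl5 goes from 47.8 to 477 CPM and Klf2 from 946 to 471 CPM between sums of 0 and 2.

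Members were not alike among themselves. Ccl5 was seen in 93 control members (27.5%) and 251 rescued members (29.6%), against 6.98% and 13.7% of other cells. At 2000 UMIs per cell it was seen in 22.6% against 4.73% of control cells and in 21.1% against 10.6% of rescued cells. The 10 members richest in Ccl5 held 54.2% of its UMIs in the control class and 27.4% in the rescued class. Gzmb was rarer, in 17 control (5.03%) and 42 rescued (4.95%) members, and the 10 richest held 89.0% and 75.1% of its UMIs. In the rescued class a single cell held 97 Gzmb UMIs. Ccl5 was thus seen in many more members than Gzmb, whose level in the class was set by a few cells.

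Members were then split by Ccl5, a split chosen after its values were seen. Nkg7 went with Ccl5 in both libraries, at 206 against 74.5 CPM in the control and 73.8 against 22.4 CPM in the rescued class, log2 ratios of 1.47 (1.07 to 1.87) and 1.72 (1.29 to 2.16). Klrg1, a receptor of terminally differentiated T cells, went the same way at 1.45 and 0.85. Ccr9, the receptor for homing to the small intestine, was lower with Ccl5, at -1.49 (-2.88 to -0.34) and -0.74 (-1.12 to -0.38), as was the lymph node homing receptor Ccr7 at -0.79 and -0.60. Gzmb went with Ccl5 in the control class at 2.25 (1.52 to 3.02) and not in the rescued class at 0.18 (-0.17 to 0.52). Il10 was at 0.22 (-1.96 to 2.12) from 12 UMIs in the control class and at 1.76 (1.15 to 2.37) in the rescued class. The rescued ratio rested on 1 cell, which held 40 of the 61 Il10 UMIs of Ccl5+ members, beside 39 in members without Ccl5. No difference between the libraries was read from it. Cxcr3 itself was at -0.01 and -0.12. Ccl5+ members were deeper, with medians of 5599 against 4512 and 4995 against 4479.5 UMIs.

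Members with UMIs of both rule genes were set against members with Cxcr3 alone. Gzmb was at 133 against 25.0 CPM in the control and 301 against 48.0 CPM in the rescued class, log2 ratios of 2.41 (1.70 to 3.11) and 2.65 (2.29 to 2.99). Nkg7 was at 1.32 (0.85 to 1.77) and 0.64 (-0.11 to 1.31). Ccl5 was higher with both genes in the control class at 1.998 (1.82 to 2.18), and at 0.02 (-0.27 to 0.30) in the rescued class. These are values of 34 and 52 cells, whose median depths of 6537.5 and 5013 UMIs were above the 4475 and 4531 of members with Cxcr3 alone. The 10 richest members held 89.0% and 75.1% of all Gzmb UMIs in the control and rescued classes. How far the Gzmb ratios rest on those cells was not tested.

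To see what set the class apart from other activated Treg cells, it was compared with cells outside it that had at least 2 UMIs of Itgae, or of the tissue-repair genes Areg, Klrg1 and Il1rl1 together. Such rules also pick deep cells, with medians from 4485 to 5187 UMIs. Ccl5 was higher in the class against both kinds of cell in both libraries. Its log2 ratios were 1.90 and 1.09 against Itgae cells and 2.29 and 1.24 against tissue-repair cells. Il2rb was higher throughout, at 0.35 and 0.54 and at 0.56 and 0.75, and so was Ifngr1, at 0.41 and 0.48 and at 0.81 and 0.59. All 12 of these ratios of Ccl5, Il2rb and Ifngr1 had intervals above 0.

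Nkg7 was also above both kinds of cell, at 1.34 and 0.63 against Itgae cells and at 0.36 (-0.08 to 0.82) and 2.43 against tissue-repair cells, the last from 7 UMIs in the tissue-repair cells. Other genes changed direction with the cells compared. Gzmb was at -0.58 and 1.03 against Itgae cells and at -0.49 and -1.45 against tissue-repair cells. S100a6 was higher in the class than in Itgae cells, at 0.26 (0.15 to 0.37) and 0.62 (0.56 to 0.69), and lower than in tissue-repair cells, at -0.58 (-0.69 to -0.46) and -1.02 (-1.10 to -0.95). The median of the resting list was -0.39 and -0.18 against Itgae cells and -0.09 and 0.37 against tissue-repair cells. The median of the Th1 programme was -0.09 and -0.03 against Itgae cells, with 2 of 15 genes higher and 0 lower in both libraries. Against tissue-repair cells it was 0.14 and -0.12, with 2 of 15 genes higher and 4 lower in both libraries. Itgae had 2 or more UMIs in 16.6% of control and 44.2% of rescued members. At 2000 UMIs per cell such cells made up 6.23% of members against 2.72% of other cells in the control library and 14.8% against 14.0% in the rescued library.

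Inside the class, rescued members were higher than control members in 8 of 26 suppressor and activation genes and lower in 7 of 13 resting genes, while homing receptors went both ways. Of 8597 genes with at least 50 UMIs over the class, 353 (4.11%) were at least 1.5-fold higher and 233 (2.71%) at least 1.5-fold lower in rescued members. Foxp3 was at 81.4 CPM in control and 506 CPM in rescued members, a log2 ratio of 2.63 (2.40 to 2.88), and at 2.48 (2.39 to 2.58) in the other cells. The alleles differ at the Foxp3 locus, with the DTR-GFP cassette behind the coding region, so a difference in Foxp3 RNA and a difference in how its 3′ end was counted cannot be told apart. The difference of these ratios was 0.15 (-0.10 to 0.41).

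Il10 was at 6.39 CPM in control and 20.7 CPM in rescued members, a log2 ratio of 1.69 (0.83 to 2.69), beside 2.06 in other cells; 1 rescued member held 40 of its 100 UMIs there. Without the richest cell of each population the ratio was 1.22. The integrin Itgae (CD103), which binds E-cadherin on epithelium, was at 118 and 336 CPM, log2 ratios of 1.51 (1.31 to 1.72) in members and 2.11 in other cells. Ccr9 was at 28.2 and 77.3 CPM, 1.45 (1.04 to 1.90) in members and 2.35 in other cells. Of 20 homing receptors 3 were higher in rescued members, Itgae, Ccr9 and the skin homing receptor Ccr4 (0.77), and 3 were lower, Ccr7 (-1.04), Cxcr4 (-0.92) and Cxcr6 (-1.44), with a median of 0.09 in members and 0.35 in other cells. Further genes by the rule were Gbp2b, an interferon-induced GTPase with close relatives whose counts are uncertain (2.44, and 1.85 in other cells), Atp6v0d2, a proton pump subunit (2.01 and 1.69), and Sh3bgrl2 (3.11 and 0.93) and Myo3b (1.95 and 0.66).

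Genes lower in rescued members included Tcf7, a transcription factor of resting and stem-like T cells, at 225 and 75.7 CPM, a log2 ratio of -1.57 (-1.78 to -1.37), beside -1.31 in other cells. Actn1 was at -1.64 beside -1.89, Cmah at -1.36 beside -1.42, and the heat shock gene Hspa1a at -1.70 beside -1.004. Ehd3 was at -1.36 beside -0.78. Nkg7 was at 113.9 and 38.7 CPM, -1.56 (-1.85 to -1.27) in members and -0.79 in other cells. Lgals3, which encodes galectin-3, was at -1.50 (-2.03 to -0.98) and Actg2 at -1.24 (-1.79 to -0.68), beside 0.79 and 0.40 in other cells. The 10 richest members held 74.2% and 71.7% of the Lgals3 UMIs in the control and rescued classes, and 88.9% and 72.9% for Actg2.

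The Th1 programme held genes in both directions between the libraries. Of 16 tested genes 2 were higher in rescued members, Gzmb (0.75) and the cytokine Tnf (0.84), and 4 were lower, Ccl5 (-0.81, -0.92 to -0.69), Nkg7, Cxcr6 and Il18r1 (-0.85), with a median of -0.07 in members and 0.40 in other cells. Gzmb lost the call at 0.53 without the richest cell of each class, since 1 rescued member held 97 of the 317 UMIs. Ccl5 was at 0.80 (0.67 to 0.92) in other cells. As summed CPM, rescued members therefore had less Ccl5 than control members, while other rescued cells had more than other control cells. The gap between members leaned on few cells, since the 10 richest held 54.2% of the Ccl5 UMIs in the control and 27.4% in the rescued class. Without the richest cell of each class the ratio was -0.66. The share of members with a Ccl5 UMI was close between the classes, at 29.6% in the rescued and 27.5% in the control class. At 2000 UMIs per cell the order turned, with 21.1% and 22.6%. Of 13 resting genes 0 were higher and 7 lower, with a median of -0.61 in members and -1.09 in other cells. Of 26 suppressor and activation genes 8 were higher and 1 lower, with medians of 0.34 and 0.86, and Ctla4 was at 0.61, Icos at 0.69 and Fgl2 at 1.09 in members. Of 10 Treg identity genes 4 were higher (Foxp3, Il2ra at 0.71, Lrrc32 at 1.30 and Gpr83 at 0.71) and 0 lower.

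**Figure D5:**
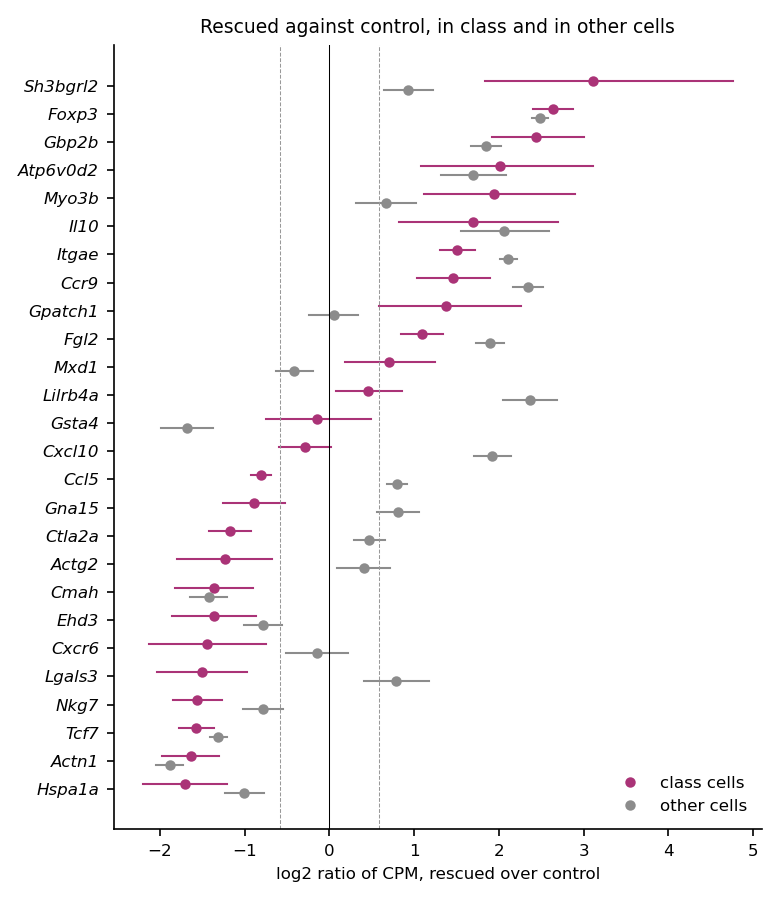
Log2 ratio of CPM, rescued over control (horizontal axis), for 26 named genes in members of the class (purple) and in the other cells (grey), with 95% intervals for counting error; dashed lines mark 1.5-fold. Foxp3 lies at 2.63 in members and 2.48 in other cells, while Ccl5 lies at -0.81 and 0.80 and Lgals3 at -1.50 and 0.79.

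Some ratios of rescued to control differed between members and other cells. The difference of the log2 ratios, members minus other cells, was highest for Sh3bgrl2 at 2.18 (0.86 to 3.50), which had 5 UMIs in control members, and then for Gsta4, a glutathione transferase (1.53), Gpatch1 (1.32), Myo3b (1.28) and Mxd1 (1.12). It was lowest for Lgals3 at -2.29 (-2.92 to -1.66), Cxcl10 at -2.21 (-2.58 to -1.84), the inhibitory receptor Lilrb4a at -1.90, Gna15 at -1.70 and Ctla2a at -1.64. Behind Cxcl10 were 69.7 CPM in control members, 17.8 in other control cells, 57.1 in rescued members and 67.3 in other rescued cells. Lgals3 was at 35.1, 7.30, 12.4 and 12.6 CPM in the same order. For both, control members were high and the other control cells low, with both rescued populations close to each other.

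The tdTomato reporter, which marks descendants of cells present at 4-OHT, had more UMIs per total in control members than in other control cells, while in the rescued library the interval of the ratio included 0. Its level was 470.0 against 379 CPM in control cells, with a log2 ratio of 0.31 (0.21 to 0.42), and 648 against 670.0 CPM in the rescued library, -0.05 (-0.11 to 0.01). At 2000 UMIs per cell it was seen in 54.9% (49.4 to 60.3) of control members and 44.5% (42.7 to 46.2) of other control cells. In the rescued library the shares were 44.3% (40.9 to 47.7) and 42.7% (40.8 to 44.7). Without thinning they were 78.7% and 61.3% in the control and 60.2% and 54.4% in the rescued library. With the class chosen after thinning, the control ratio was 0.08 (-0.11 to 0.27) and the rescued ratio -0.24 (-0.35 to -0.14), so the control difference was not detectable for that class. No population in the libraries is known to lack the reporter, so the share that free RNA would give was not measured, and these shares were not read as shares of descendants of labelled cells.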

How the data were processed

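The labels and the study's methods describe Treg cells sorted from pooled mice, 1 10x Genomics 3′ v3 library per group. The authors processed reads with Cell Ranger 3.0 against GRCm38 with the tdTomato allele added, and deposited raw UMI counts of 16098 genes in 7024 cells. Submitters' notes also name Seurat 3.1.5. Their log2 table was deposited as well and not used here. Other per-sample columns not used numbered 0. Libraries held 15446201 (control) and 15537656 (rescued) UMIs, with medians of 3739.5 and 3846.5 per cell. The methods give 3634 and 3390 cells, the numbers in the table, after a 5% mitochondrial limit, but in these counts only 68 and 97 cells lie within it, so it was not applied.

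Counts were summed over cells and scaled to CPM, and populations compared within a library by log2 ratios (Python 3.11.15, numpy 2.4.6, scipy 1.17.1, matplotlib 3.10.9). Sums carry exact Poisson, shares Clopper-Pearson and ratios conditional exact intervals at 95%. A gene with 0 counts in a population was given no ratio. A gene counted as higher or lower past 1.5-fold, with at least 200 UMIs over all cells or 50 over the class. The ratio script was tested on simulated counts. No doublet caller was run; cells above 3 times the median UMIs were removed as an alternative. The members and lists were chosen with earlier results of these data known.

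Named genes were the 12 highest and 12 lowest by the smaller of the 2 libraries' ratios among genes of the same direction, the 8 highest and 8 lowest rescued to control ratios inside the class with at least 100 UMIs there, and the 5 highest and 5 lowest differences of that ratio from other cells. Mitochondrial, ribosomal, immunoglobulin, T cell receptor and unnamed genes were left out, as were some genes and a comparison that are not reported here. Genes of the lists may be named with their list. Gene coordinates come from GENCODE and promoters from RefSeq, both on GRCm38.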

Additional observations from a re-analysis of the deposited data

Results flagged for a closer look

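Of 8597 genes tested, 88 had rescued to control ratios of opposite direction in members of the Cxcr3 class and in other cells, with both counting intervals clear of 0. Of these, 8 were named by rule or were listed genes past 1.5-fold in members. These differences were not tested, because each group had 1 library. Mxd1 was higher in rescued members (log2 ratio 0.70) and lower in other rescued cells (-0.41), a difference of 1.12. Lgals3 was lower in rescued members (-1.50) and higher in other rescued cells (0.79), a difference of -2.29. Gna15 was at -0.89 and 0.81, a difference of -1.70, and Ctla2a at -1.17 and 0.47, a difference of -1.64. Actg2 was at -1.24 and 0.40, a difference of -1.64, and Ccl5 at -0.81 and 0.80, a difference of -1.60. Il18r1 was at -0.85 and 0.20, a difference of -1.05, and Top2a, an enzyme of dividing cells, at -0.77 and 0.40, a difference of -1.17. The 10 members richest in Lgals3 held 74.2% of its UMIs in the control class and 71.7% in the rescued class. For Ccl5 these shares were 54.2% and 27.4%, for Actg2 88.9% and 72.9%, and for Top2a 68.1% and 33.8%. For Gna15 they were 36.0% and 23.4%, for Ctla2a 35.5% and 19.3%, for Il18r1 24.3% and 17.7%, and for Mxd1 39.5% and 15.7%.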

How the results depend on the processing

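Each group had 1 library. No paired analysis was possible because the groups share no replicates. All alternatives were planned except leaving out the richest cell for each gene and, for class against other cells, thinning every cell to 2000 UMIs, both chosen after seeing the data. CPM without mitochondrial genes and centring on the median gene moved none of the results by more than the counting interval.

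The class share of control and rescued cells was 3.56% and 10.2% with the class chosen at 2000 UMIs, 1.21% and 3.54% at 1000 UMIs, 4.62% and 14.9% at sums of 3 or more, 17.9% and 41.7% at 1 or more, and 11.3% and 28.9% within 10% mitochondrial UMIs. The Th1 median of class over other cells (0.42 as the mean of both libraries) was 0.58 at sums of 3 or more, 0.51 with the class chosen at 2000 UMIs, 0.62 with each gene required, 0.79 by Tbx21 alone and 0.31 with other cells weighted to the class depth. Rescued over control in the class, it was -0.28, -0.48, -0.37 and -4.49 under the first 4 of these and -0.23 within the mitochondrial limit. The resting median was -0.74 at sums of 1 or more, -0.68 with each gene required, -0.97 by Tbx21 alone and -0.52 with depth weights.

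Genes higher and lower in the class numbered 462 and 327 by Tbx21 alone (9 and 16 cells), 168 and 334 with each gene required (34 and 52 cells), 71 and 83 at a minimum of 100 UMIs and 17 and 25 at 400. Higher genes fell to 15 within the mitochondrial limit and to 20 without the richest cell of each population, and lower genes rose to 139 with the class chosen at 2000 UMIs and to 81 with depth weights. Genes higher and lower in rescued members numbered 82 and 48 by Tbx21 alone, where 503 genes were tested, 172 and 137 with each gene required, 561 and 408 at a minimum of 25 UMIs over the class and 180 and 107 at 100. The tdTomato share of members exceeded that of other cells by 17.4 and 5.76 percentage points without thinning.

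Directions turned, class over other cells, for the type I interferon median at sums of 3 or more (0.0017), 1 or more (0.0218) and with each gene required (0.0579), and, with the class chosen at 2000 UMIs, for the cell cycle median (-0.0751), Il10 (-0.81), Ssfa2 (-0.18), tdTomato (-0.0792 as the mean of both libraries) and Tnfsf13b (-0.38). With each gene required the medians of Th2 (-0.25), follicular (-0.16), homing (-0.0115), Treg identity (-0.14) and label check (-0.0671) genes turned, as did, rescued over control, that of Th2 genes (-0.23). By Tbx21 alone the follicular (-0.21), homing (-0.12), Treg identity (-0.0602) and stress (0.29) medians and Alcam (-0.0722) turned and, rescued over control, the resting (0.18), interferon γ (-0.17), S100 (0.0463) and label check (-0.18) medians and Lgals3 (1.07). The S100 median also turned at sums of 1 or more (0.0196). The cause was not tested, but Tbx21 alone and both genes leave few cells.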

Other observations

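Xcl1, which encodes the chemokine lymphotactin, had too few UMIs for a call. It had 21 UMIs in control members and 52 in other control cells (11.2 against 3.83 CPM), and 9 and 2 in the rescued library (1.86 against 0.187 CPM). In 298 control members with Cxcr3 alone it had 18 UMIs, and in 34 with both rule genes 1. These counts came from few cells. Of the control members 6 had a UMI of Xcl1, and 1 of them held 12 of the 21. Of the rescued members 2 had one, and 1 of them held 7 of the 9.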
